A study of Mus musculus with 12 samples.

Results

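The 10 genes described here encode the subunits of the transcription factor AP-1 and its close relatives in mouse: the Jun proteins (Jun, Junb, Jund), the Fos proteins (Fos, Fosb, Fosl1, Fosl2), and Atf3, Batf and Maff. The rule that picks them uses gene names and no measured value, and all 10 were among the 16920 genes in the count tables. 9 of them passed the filter on low counts, which left 12064 genes for testing. Fosb did not pass, with 1 to 4 counts per library.

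AP-1 is a dimer of basic leucine zipper proteins. Jun proteins pair with each other or with a Fos protein, Fos proteins need a partner, and the choice of subunits changes how strongly a dimer activates a gene. In macrophages, lipopolysaccharide (LPS, a component of the bacterial outer membrane) signals through Toll-like receptor 4 to MAP kinases, which phosphorylate AP-1 subunits and switch on their genes. Fos and Jun are classical immediate early genes, whose mRNA rises within minutes of a stimulus and is then quickly degraded.

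To ask how the m6A reader Ythdf1 bears on the macrophage response to LPS, RNA was sequenced from 12 libraries of peritoneal macrophages of C57BL/6 mice, in 4 groups of 3. The groups crossed the genotype label, wild type (WT) or Ythdf1 knockout (KO), with the treatment, PBS or 1 µg/mL LPS, and each culture was treated for 6 h. Per the study's methods the mice were young adults, the knockout is a Ythdf1-/- line, and the cells were elicited with thioglycollate (the series record names starch broth) and were then cultured. The replicates are described as independent biological samples, without saying whether a sample came from a single mouse or a pool. Total counts lay between 21546274 and 22017005 per library.

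The targeted gene was not lower in the KO-labelled libraries. With PBS, Ythdf1 mRNA stood at 43.5 ± 1.54 CPM (SD, n = 3) under the WT label, where CPM is the count scaled by the TMM-adjusted library size, and at 57.2 ± 1.53 CPM under the KO label. The log2 difference was 0.40 ± 0.06 (SE, adjusted p = 1.33e-04, edgeR's quasi-likelihood test). After LPS the same means were 201 ± 9.37 and 198 ± 6.94 CPM (log2 -0.03 ± 0.06, adjusted p = 0.724). A count over the whole gene cannot show a small deletion, so the libraries are called "KO-labelled" throughout and every difference is between labels. All 8 macrophage markers were detected in every group, with a summed level of 17170 to 19943 CPM per library. Between the labels, 1 was higher and 1 lower in KO-labelled cells with PBS, and 1 was higher and 3 lower with LPS, where Mertk stood at 233 CPM in WT and 98.3 CPM under the KO label and Cd14 at 460 and 735 CPM. Replicate 1 of the WT LPS group stood apart, with a mean chi-square per gene of 32.7 and 25.5 against replicates 2 and 3, which differed from each other by 3.08. In the KO-labelled LPS group replicates 2 and 3 differed by 16.7 and the other pairs by 5.83 and 7.43, whereas pairs of PBS libraries lay between 2.77 and 4.68. Markers of other cells also moved with the labels. All 4 fibroblast genes fell in the KO-labelled libraries under either treatment, and all 4 rose with LPS under either label. Their summed levels were 66.0 to 78.3 CPM with PBS and 108 to 120 CPM with LPS in WT, and 29.2 to 40.6 CPM and 51.1 to 64.3 CPM in KO-labelled libraries. The 5 skeletal muscle genes summed to 28.7 to 33.6 CPM in WT LPS libraries and to 0.428 to 0.684 CPM in KO-labelled LPS libraries, where Myh4 and Tnnt3 were at 0. In the PBS libraries these sums were 17.2 to 22.6 CPM for WT and 0.319 to 19.6 CPM for the KO label. At lower levels, 2 of 5 mesothelium genes were lower in KO-labelled cells with PBS and 1 with LPS (Wt1, 1.03 against 2.83 CPM). The eosinophil gene Siglecf was lower with LPS (1.19 against 2.17 CPM). S100a8, the 1 neutrophil gene tested, was higher with LPS (12.01 against 8.55 CPM). The neutrophil genes S100a9 (0.0205 against 0 CPM) and Camp (0.677 against 0.360 CPM) were near 0 and not tested. LPS raised 5 macrophage markers and lowered 1 in WT, and raised 3 and lowered 1 in KO-labelled cells. Under either label it lowered the 1 B cell and 1 T cell gene tested and raised S100a8. In KO-labelled cells alone, it lowered 4 of 5 skeletal muscle genes and Siglecf and raised 2 mesothelium genes. The part of cells other than macrophages in the LPS responses and label differences was not tested.

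For 4 members, the 250 bases before the start site are printed because their mRNAs changed in opposite directions: Fos and Jun fell with LPS, whereas Junb and Fosl2 rose. The sequences are those of RefSeq for GRCm38.p6, written 5′ to 3′ on the gene's own strand, and capitals mark matches to the motifs searched. The window of Fos is chr12:85473640-85473889 (plus strand), Jun chr4:95052223-95052472 (minus), Junb chr8:84978749-84978998 (minus) and Fosl2 chr5:32136222-32136471 (plus).
Fos: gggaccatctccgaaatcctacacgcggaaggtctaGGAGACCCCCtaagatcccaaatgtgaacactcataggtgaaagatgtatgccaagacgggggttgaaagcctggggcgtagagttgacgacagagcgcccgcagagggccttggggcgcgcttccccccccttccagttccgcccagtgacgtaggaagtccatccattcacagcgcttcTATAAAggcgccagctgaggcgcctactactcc
Jun: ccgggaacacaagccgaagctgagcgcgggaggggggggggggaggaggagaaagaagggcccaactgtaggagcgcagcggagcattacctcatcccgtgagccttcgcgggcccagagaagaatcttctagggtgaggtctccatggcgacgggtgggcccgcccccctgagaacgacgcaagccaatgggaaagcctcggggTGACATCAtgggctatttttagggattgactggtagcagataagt
Junb: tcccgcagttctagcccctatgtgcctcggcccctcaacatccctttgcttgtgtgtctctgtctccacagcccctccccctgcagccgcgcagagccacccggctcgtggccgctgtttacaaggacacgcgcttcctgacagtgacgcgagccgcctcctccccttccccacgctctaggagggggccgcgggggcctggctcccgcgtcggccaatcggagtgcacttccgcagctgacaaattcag
Fosl2: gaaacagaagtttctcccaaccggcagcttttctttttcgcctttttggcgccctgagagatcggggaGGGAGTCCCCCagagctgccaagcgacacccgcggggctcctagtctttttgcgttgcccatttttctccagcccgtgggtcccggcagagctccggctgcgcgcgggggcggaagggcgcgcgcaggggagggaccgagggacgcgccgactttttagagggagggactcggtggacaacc

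The motifs searched on both strands were the AP-1 site TGANTCA, the cyclic AMP response element TGACGTCA with its looser form TGACNTCA, the TATA box TATAAA, the CArG box of the serum response factor, and the NF-kB motif. TGACNTCA, which includes TGACGTCA, was added after the windows had been read. In the Fos window, TATAAA lay 33 to 28 bases before the start and an NF-kB motif 214 to 205 bases before it. The Jun window held TGACATCA, 45 to 38 bases before the start. Fosl2 held a pair of overlapping NF-kB motifs between 182 and 172 bases before the start, and the Junb window held none of the motifs. Of the other members, Fosb had an NF-kB motif in its window, and Maff, with 3 annotated starts, had TGACGTCA 29 to 22 bases before 1 of them and both TGACATCA and an NF-kB motif before another, whereas Jund, Atf3 and Batf had none. Of 32851 promoter windows of this length, 6.75% held TGANTCA, 1.55% TGACGTCA, 7.49% TGACNTCA, 12.4% TATAAA, 1.47% the CArG box and 3.9% the NF-kB motif. These matches are letters in a window and were not tested as binding sites. Each window precedes an annotated RefSeq start, and which start these cells used was not tested. Sites farther than 250 bases before a start, or after it, were not searched, so the lack of a motif holds for the window alone.

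LPS changed 9 of the 9 members tested in WT macrophages, 7 upward and 2 downward. Junb, Batf, Fosl2, Fosl1, Jund, Maff and Atf3 rose, and Fos and Jun fell. Because 76.7% of all genes tested were called in this comparison (36.5% higher, 40.2% lower), the number of members called is close to what most genes did at 6 h. The same directions were found in KO-labelled cells, again for 7 and 2 of the 9, against 79.9% of all genes (38.8% higher, 41.1% lower). In bulk RNA, fewer cells of a type and less RNA per cell cannot be told apart. Libraries with LPS had TMM factors of 0.744 to 0.808 and those with PBS 1.26 to 1.31, so the sizes of LPS changes rest on this scaling.

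Among the Jun genes, Jun (gene 16476, chr4:95049036-95052222, minus strand, 1 exon block) encodes the subunit that forms the most active dimers with Fos. Its level in WT libraries was 184, 179 and 179 CPM with PBS and 82.2, 72.0 and 72.1 CPM with LPS. In KO-labelled libraries it was 179, 185 and 191 CPM with PBS and 47.9, 50.6 and 49.7 CPM with LPS. The PBS groups overlapped, every LPS library lay below every PBS library, and every KO-labelled LPS library lay below every WT LPS library. LPS lowered Jun by a log2 change of -1.26 ± 0.06 (SE, adjusted p = 5.34e-12) in WT and -1.91 ± 0.06 (adjusted p = 2.53e-14) in KO-labelled cells.

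Junb (gene 16477, chr8:84976909-84978748, minus strand) encodes a Jun protein that activates some genes weakly and can hold back Jun. WT libraries read 78.0, 79.95 and 81.5 CPM with PBS and 788, 754 and 790 CPM with LPS. In the KO-labelled libraries it read 77.8, 84.4 and 87.8 CPM with PBS and 972, 1004 and 950 CPM with LPS. LPS and PBS libraries were far apart, and the KO-labelled LPS libraries all exceeded the WT LPS libraries. The LPS response was 9.74-fold in WT (log2 3.28 ± 0.06, adjusted p = 1.99e-17) and 11.7-fold in KO-labelled cells (log2 3.55 ± 0.06, adjusted p = 6.71e-18).

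Jund (gene 16478, chr8:70697739-70700616, plus strand) is the Jun gene usually expressed in resting cells. Its WT libraries held 118, 106 and 105 CPM with PBS and 342, 264 and 277 CPM with LPS. The KO-labelled libraries held 84.8, 88.3 and 96.6 CPM with PBS and 210, 230 and 237 CPM with LPS. Within each treatment every KO-labelled library lay below every WT library. LPS raised Jund 2.69-fold in WT (log2 1.43 ± 0.09, adjusted p = 2.42e-10) and 2.51-fold in KO-labelled cells (log2 1.33 ± 0.09, adjusted p = 5.84e-10). An antisense gene, Gm11175, covers 52.6% of the exon bases of Jund on the opposite strand, and the sources used here do not say whether reads were counted by strand. For Jun and Junb the opposite-strand overlap was 7.28% (with Junos) and 7.52% (with Prdx2).

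Fos (gene 14281, chr12:85473890-85477274, plus strand), the prototype immediate early gene, was the Fos family member with the highest level per kb in both PBS groups. In WT libraries it stood at 59.3, 56.1 and 57.6 CPM with PBS and 23.0, 24.6 and 24.5 CPM with LPS. In KO-labelled libraries it stood at 76.5, 72.2 and 75.7 CPM with PBS and 19.6, 22.6 and 18.2 CPM with LPS. The KO-labelled libraries were thus above WT with PBS and below WT with LPS, without overlap in either case. LPS lowered it by a log2 change of -1.26 ± 0.07 (adjusted p = 5.68e-11) in WT and -1.89 ± 0.07 (adjusted p = 2.47e-13) in KO-labelled cells.

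Fosl2 (gene 14284, chr5:32136472-32157840, plus strand) encodes Fra-2, a Fos protein without the transactivation domain of Fos. WT libraries held 27.6, 27.2 and 27.7 CPM with PBS and 135, 106 and 113 CPM with LPS. KO-labelled libraries held 23.2, 27.3 and 26.2 CPM with PBS and 257, 206 and 283 CPM with LPS. The PBS groups overlapped, whereas the lowest KO-labelled LPS library exceeded the highest WT LPS library. Its response was 4.29-fold in WT (log2 2.10 ± 0.11, adjusted p = 1.03e-10) and 9.74-fold in KO-labelled cells (log2 3.28 ± 0.12, adjusted p = 4.23e-13).

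Fosl1 (gene 14283, chr19:5447698-5455938, plus strand) encodes Fra-1, the close relative of Fra-2, and was a low mRNA throughout. It read 0.868, 0.429 and 0.965 CPM in WT PBS and 3.53, 3.53 and 3.16 CPM in WT LPS libraries. It read 0.490, 0.316 and 0.531 CPM in KO-labelled PBS and 6.08, 6.06 and 5.53 CPM in KO-labelled LPS libraries. LPS raised it 4.49-fold in WT (log2 2.17 ± 0.22, adjusted p = 1.29e-07) and 13.1-fold in KO-labelled cells (log2 3.71 ± 0.23, adjusted p = 1.08e-10). These folds start from 9.19 to 26.7 estimated counts per PBS library, and the counts of Fosl1 carried decimals in all 12 libraries. Ccdc85b, on the opposite strand, shares 57.2% of the exon bases of Fosl1, and it moved the other way with LPS, by log2 -2.58 ± 0.16 in WT and -2.67 ± 0.16 in KO-labelled cells. Ccdc85b did not pass the test between the labels (log2 0.09 ± 0.24 with LPS, adjusted p = 0.793), and its part in the values of Fosl1 was not tested. Fosb, the other Fos gene, lay between 0.0357 and 0.173 CPM in the 12 libraries, near the level of 3 counts (0.105 to 0.187 CPM). It was not tested. Its WT LPS libraries (0.113 to 0.173 CPM) lay above its WT PBS libraries (0.0357 to 0.107 CPM), although their counts of 2 to 3 and 1 to 3 overlapped.

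Atf3, Batf and Maff, which pair with AP-1 subunits or compete with them, each rose with LPS. Atf3 (gene 11910, chr1:191170296-191183333, minus strand) encodes a factor that restrains Toll-like receptor responses. It stood at 213, 226 and 218 CPM in WT PBS and 412, 425 and 429 CPM in WT LPS libraries. It stood at 225, 225 and 218 CPM in KO-labelled PBS and 368, 369 and 378 CPM in KO-labelled LPS libraries. PBS groups overlapped, and every KO-labelled LPS library lay below every WT LPS library. The response was 1.93-fold in WT (log2 0.95 ± 0.05, adjusted p = 1.81e-11) and 1.67-fold in KO-labelled cells (log2 0.74 ± 0.05, adjusted p = 4.51e-10). Its direction in KO-labelled cells depended on the scaling: with library totals alone it was -0.06 ± 0.05 (adjusted p = 0.249), where the median of all genes was itself shifted by -0.80.

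Batf (gene 53314, chr12:85686720-85709087, plus strand) encodes a small leucine zipper protein that lacks a transactivation domain and binds DNA with Jun proteins and IRF factors. It rose from 6.29, 8.12 and 8.36 CPM with PBS to 117, 149 and 144 CPM with LPS in WT, and from 6.76, 7.02 and 7.69 CPM to 140, 143 and 129 CPM in KO-labelled libraries. The labels overlapped under both treatments. These were the largest folds among the 9 members tested, 18.0-fold in WT (log2 4.17 ± 0.11, adjusted p = 1.78e-15) and 19.2-fold in KO-labelled cells (log2 4.26 ± 0.11, adjusted p = 1.20e-15). Maff (gene 17133, chr15:79346621-79359078, plus strand), a small Maf protein, rose from 4.19, 4.94 and 5.08 CPM to 12.4, 8.94 and 10.1 CPM in WT and from 5.01, 5.65 and 5.38 CPM to 14.9, 17.1 and 15.7 CPM in KO-labelled libraries. Here the KO-labelled LPS libraries all lay above the WT LPS libraries, and the responses were 2.21-fold (log2 1.14 ± 0.12, adjusted p = 2.38e-07) and 2.97-fold (log2 1.57 ± 0.12, adjusted p = 1.45e-09).

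**Figure D1:**
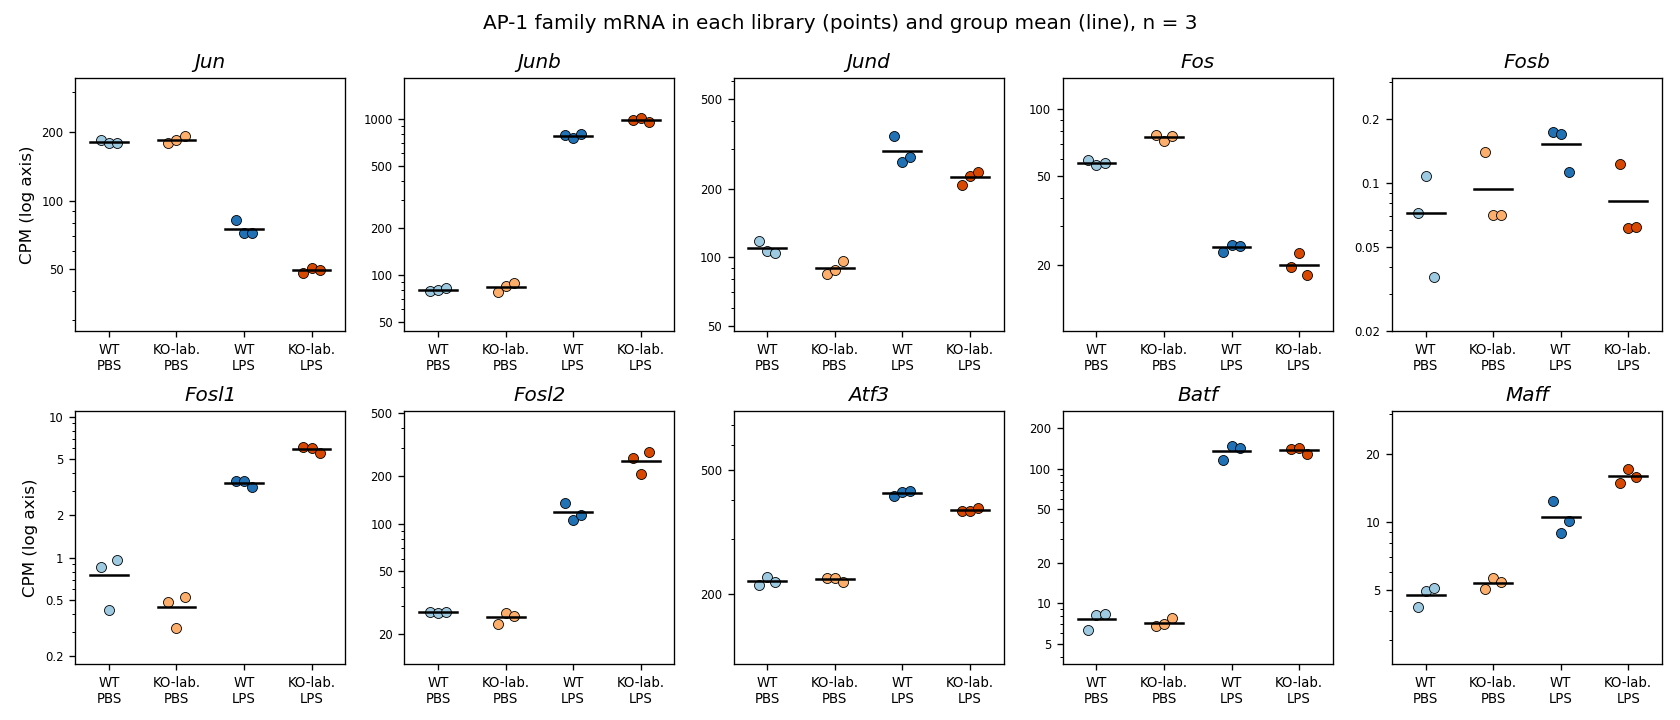
CPM of each of the 10 members (log axis, a separate range per panel) in the 12 libraries, with points for libraries and lines for the means of 3 libraries per group. Jun and Fos were lower with LPS, Junb, Jund, Fosl1, Fosl2, Atf3, Batf and Maff were higher, and Fosb stayed between 0.0357 and 0.173 CPM.

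**Figure D2:**
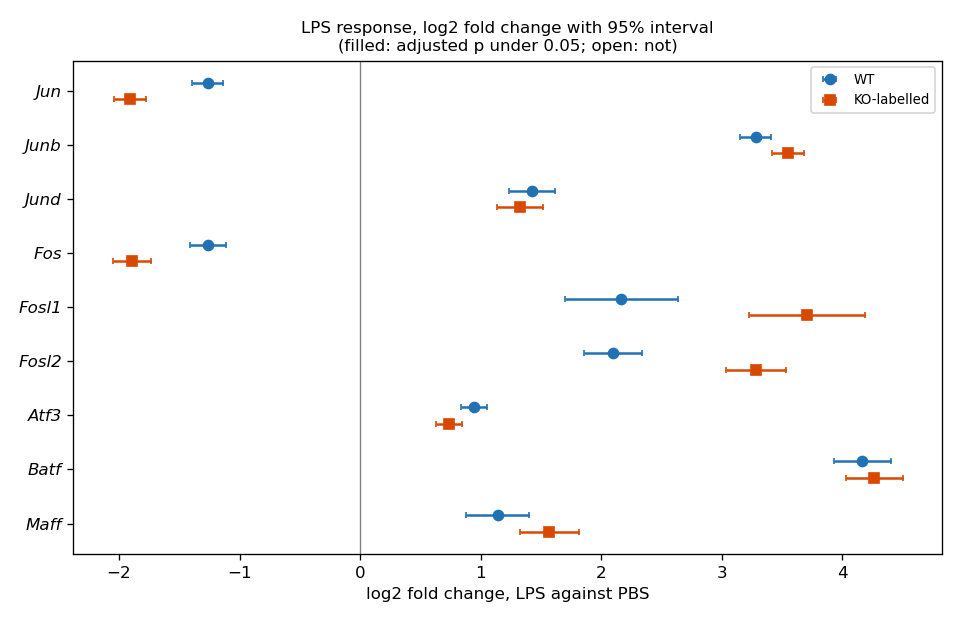
Log2 fold change of LPS against PBS (x axis) for the 9 members tested, in WT and KO-labelled cells, with 95% intervals of the edgeR fit. The responses of Fosl1 and Fosl2 in KO-labelled cells lay at 3.71 and 3.28 against 2.17 and 2.10 in WT, and those of Jun and Fos at -1.91 and -1.89 against -1.26 in WT.

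LPS thereby changed the make-up of AP-1 mRNA. To compare genes, CPM were divided by the exon length of each gene (all annotated exons of GENCODE merged). For 2 Jun genes these lengths do not match the RefSeq positions. Jund has 1668 exon bases, fewer than its RefSeq span of 1 exon block, and Junb has 2301, more than its RefSeq span. The order of the Jun genes with PBS, the place of Jund with LPS and the Jun family shares therefore rest on the lengths used. In WT PBS libraries the order was Atf3 (102 ± 3.12 CPM per kb, SD, n = 3), Jund (65.7 ± 4.19), Jun (56.8 ± 0.863), Junb (34.7 ± 0.762), Fos (24.5 ± 0.690), Batf (5.40 ± 0.806), Fosl2 (2.84 ± 0.0273), Maff (1.83 ± 0.183), Fosl1 (0.371 ± 0.140) and Fosb. In KO-labelled PBS libraries Jun (58.1 ± 1.93 CPM per kb) and Jund (53.9 ± 3.66) overlapped and the rest kept this order. With LPS, Junb stood first, at 338 ± 8.94 CPM per kb in WT and 424 ± 11.8 in KO-labelled libraries. It was followed by Atf3 (196 ± 4.12 and 173 ± 2.67 CPM per kb), Jund (176 ± 25.2 and 135 ± 8.58) and Batf (97.2 ± 12.1 and 97.8 ± 5.10), of which Atf3 and Jund overlapped in WT. Jun came next in WT (23.7 ± 1.85 CPM per kb) ahead of Fosl2 (12.2 ± 1.56) and Fos (10.2 ± 0.374), whereas Fosl2 (25.7 ± 4.04) exceeded Jun (15.5 ± 0.429) and Fos (8.56 ± 0.976) in KO-labelled libraries. Maff and Fosl1 followed in both.

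As a share of the Jun family's CPM per kb, Jun fell from 36.1% ± 0.444 (SD, n = 3) with PBS to 4.40% ± 0.129 with LPS in WT, and from 39.2% ± 0.728 to 2.70% ± 0.0306 in KO-labelled libraries. Junb went from 22.1% ± 1.06 to 62.9% ± 2.76 in WT and from 24.4% ± 0.411 to 73.8% ± 1.35 in KO-labelled libraries. Of the Fos family's CPM per kb, Fos held 88.4% ± 0.362 with PBS and 42.5% ± 3.61 with LPS in WT, and 91.7% ± 0.660 and 23.3% ± 4.61 in KO-labelled libraries. Fosl2 held 10.3% ± 0.235 and 50.4% ± 3.84 in WT, and 7.63% ± 0.774 and 68.9% ± 5.54 in KO-labelled libraries. Without the division by exon length the shares of Fosl2 were 32.0% and 80.9% in WT and 25.3% and 90.3% in KO-labelled libraries, so the size of a share rests on the lengths used. The shares do not depend on the scaling between libraries. They are descriptions, and with 3 libraries against 3 an exact permutation test cannot give a p below 0.1.

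**Figure D3:**
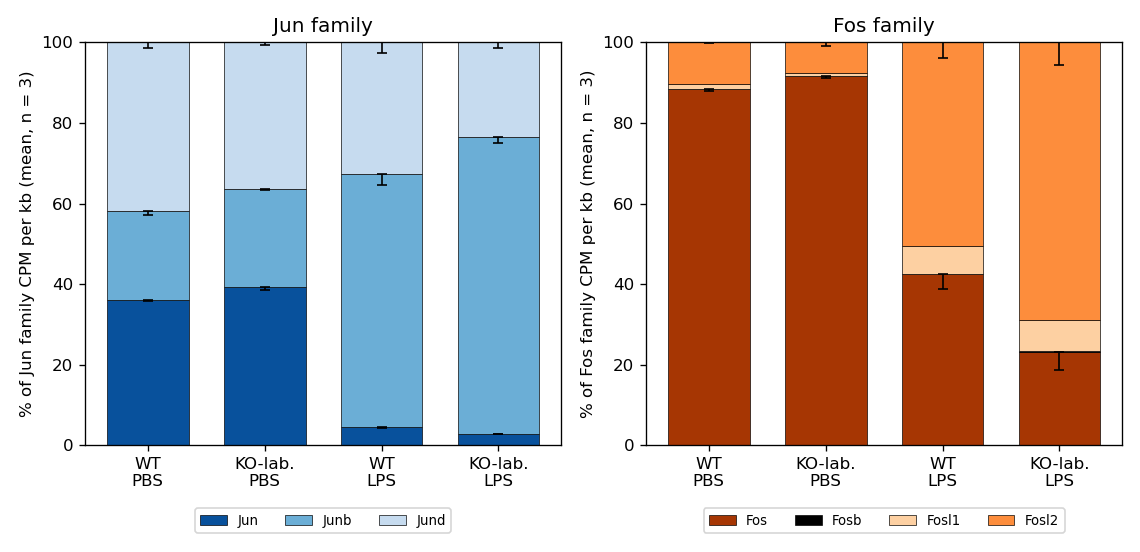
Share of each member in the summed CPM per kb of the Jun family (left) and the Fos family (right), as means of 3 libraries per group, with 1 SD drawn downward from the top of each segment for the larger members. Junb made up 62.9% and 73.8% of the Jun family in WT and KO-labelled LPS libraries, and Fosl2 50.4% and 68.9% of the Fos family.

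With PBS, 2 of the 9 members differed between the labels: Fos was higher and Jund lower in KO-labelled cells. Across all genes tested, 25.3% were called in this comparison (12.3% higher, 13.0% lower), so this number is near the background. Fos was 1.298-fold higher (log2 0.38 ± 0.07, adjusted p = 6.31e-04). Jund was lower by log2 -0.28 ± 0.09 (adjusted p = 0.0284), a call that was lost when replicate 1 or 2 of either PBS group was left out (adjusted p = 0.0523 to 0.177). The log2 differences of the others were -0.75 ± 0.30 for Fosl1 (adjusted p = 0.0808, and 0.0130 without WT PBS replicate 2), 0.17 ± 0.13 for Maff, -0.11 ± 0.12 for Fosl2, -0.09 ± 0.12 for Batf, 0.06 ± 0.06 for Junb, 0.03 ± 0.06 for Jun and 0.02 ± 0.05 for Atf3. Their 95% intervals all included 0 except that of Fosl1 (-1.39 to -0.11).

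With LPS, 8 of the 9 members differed between the labels, 4 in each direction, where 41.4% of all genes were called (22.1% higher, 19.3% lower). Fosl2 was 2.11-fold higher in KO-labelled than in WT cells (log2 1.08 ± 0.11, adjusted p = 2.15e-06), and ranked 204th of 12064 genes in this direction. Fosl1 was 1.73-fold higher (log2 0.79 ± 0.17, adjusted p = 0.00177), Maff 1.52-fold (log2 0.60 ± 0.11, adjusted p = 4.80e-04) and Junb 1.25-fold (log2 0.33 ± 0.06, adjusted p = 1.98e-04). Jun was lower by log2 -0.61 ± 0.06 (adjusted p = 1.89e-06), Jund by -0.38 ± 0.09 (adjusted p = 0.00238), Fos by -0.26 ± 0.08 (adjusted p = 0.0161) and Atf3 by -0.18 ± 0.05 (adjusted p = 0.00700). Batf did not pass the test (log2 0.01 ± 0.09, 95% interval -0.18 to 0.20, adjusted p = 0.942). Without replicate 1 of WT LPS the number called was again 8, whereas the call of Fos was lost without KO LPS replicate 1 or 3 and in a fit to the LPS libraries alone (adjusted p = 0.0600, 0.0844 and 0.0690). The fibroblast and skeletal muscle genes fell between the same libraries.

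The test of the difference between the LPS responses (the interaction of label and LPS) called 6 of the 9 members, 3 in each direction, and 18.0% of all genes (9.78% higher, 8.26% lower). The response of Fosl1 was larger in KO-labelled cells by log2 1.54 ± 0.35 (adjusted p = 0.00600) and that of Fosl2 by 1.18 ± 0.16 (adjusted p = 1.38e-04). Jun and Fos, which fell with LPS, fell further in KO-labelled cells, by log2 -0.64 ± 0.09 (adjusted p = 1.03e-04) and -0.63 ± 0.10 (adjusted p = 5.40e-04). These 4 calls held in every alternative in which the gene was tested.

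The remaining calls were less firm. Junb (log2 0.26 ± 0.08, adjusted p = 0.0299) was called in 8 of 19 alternatives (adjusted p = 0.0116 to 0.285), and Atf3 (-0.21 ± 0.07, adjusted p = 0.04999) in 7 of 19 (adjusted p = 2.94e-04 to 0.110). Maff (0.43 ± 0.17, adjusted p = 0.0956) passed in 1 of 19 alternatives, without replicate 1 of WT LPS (0.56 ± 0.15, adjusted p = 0.0132). Jund (-0.10 ± 0.13, 95% interval -0.37 to 0.17) and Batf (0.10 ± 0.15, 95% interval -0.23 to 0.42) did not pass.

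**Figure D4:**
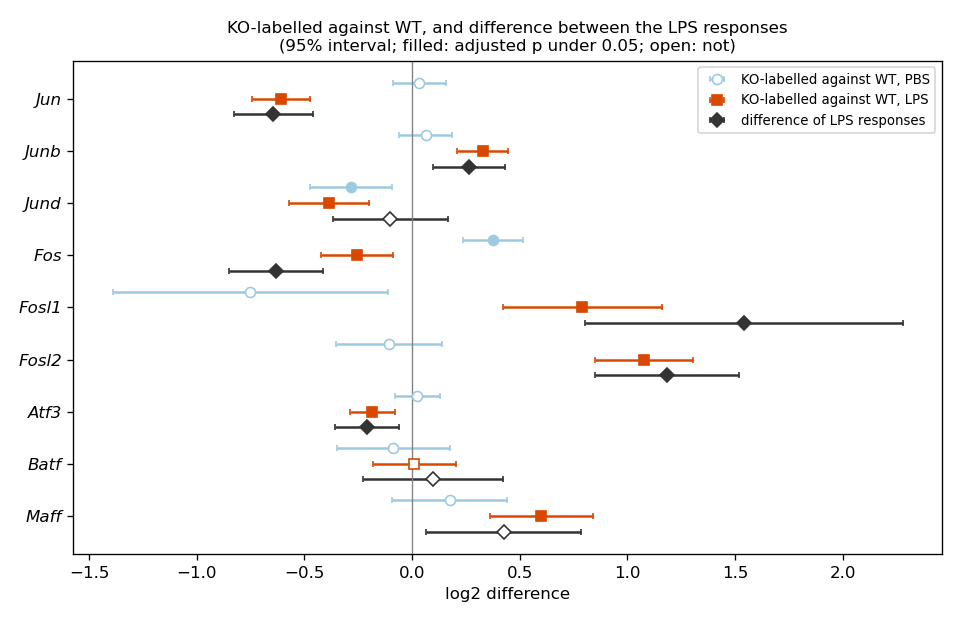
Log2 differences (x axis) of KO-labelled against WT cells with PBS and with LPS, and the difference between the LPS responses, for the 9 members tested, with 95% intervals of the edgeR fit. Fosl1 and Fosl2 had differences of response of 1.54 and 1.18, Jun and Fos of -0.64 and -0.63, and the intervals of Jund and Batf included 0.

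The regulators of these genes were described from fixed lists. Counts from these lists are to be read against the shares of all genes called, which were 76.7% and 79.9% for LPS in WT and KO-labelled cells, 25.3% and 41.4% between the labels with PBS and LPS, and 18.0% for the interaction. Of 19 genes of the MAP kinase cascade, LPS raised 8 and lowered 7 in WT (median log2 0.09, against -0.05 over all genes tested) and raised 11 and lowered 5 in KO-labelled cells (median 0.25 against -0.04). Mapkapk2, a kinase downstream of p38 that stabilises inflammatory mRNAs, rose 8.44-fold and 10.7-fold, and Map3k8, which activates ERK in macrophages, 6.83-fold and 6.72-fold. Between the labels with LPS, 12 were higher and 1 lower in KO-labelled cells (median 0.25 against 0.00059 over all genes, of which 22.1% were higher and 19.3% lower), among them Map3k5 (log2 0.79 ± 0.10), Mapk8, which encodes the Jun kinase JNK1 (0.75 ± 0.12), and Map2k3 (0.54 ± 0.06). Of these 19 genes, 4 were higher and none lower with PBS (background 25.3%), and the interaction called 5 higher and 1 lower (background 18.0%).

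Of 10 factors that bind promoters of the Fos and Jun genes, 6 were higher and 1 lower in KO-labelled LPS libraries (median log2 0.26, where 41.4% of all genes were called), and the interaction called 2, both higher, a share near the 18.0% of all genes. Mef2a, a factor of the Jun promoter, was higher with either treatment, from 120 ± 2.19 to 224 ± 14.7 CPM with PBS and from 74.6 ± 3.91 to 138 ± 8.69 CPM with LPS (SD, n = 3). Srf, the CArG box factor, had a more positive response in KO-labelled cells (interaction log2 0.50 ± 0.10, adjusted p = 0.00244). Its mean went down from 46.3 to 41.7 CPM with LPS in WT and up from 40.2 to 51.0 CPM in KO-labelled libraries. LPS itself lowered Mef2d to a fold of 0.238 in WT and 0.207 in KO-labelled cells.

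Of 15 other basic leucine zipper genes, 5 were higher and 1 lower in KO-labelled LPS libraries (median log2 0.15), close to the 41.4% of all genes called. The interaction, with 18.0% of all genes called, called Atf2 (0.34 ± 0.09, adjusted p = 0.0139) and Nfe2l2 (0.26 ± 0.07, adjusted p = 0.0171), both higher. Batf2, a relative of Batf, showed the largest LPS response of the list, from 2.91 ± 0.520 to 153 ± 2.42 CPM in WT and from 2.22 ± 0.168 to 136 ± 3.53 CPM in KO-labelled libraries. Of the 2 IRF partners of Batf, 1 rose and 1 fell with LPS in either label. Irf4 fell from 3.36 ± 0.524 to 0.762 ± 0.328 CPM in WT and from 2.28 ± 0.416 to 1.01 ± 0.0746 CPM in KO-labelled libraries, and its interaction did not pass the test (log2 0.96 ± 0.39, adjusted p = 0.1001). Irf8 rose from 144 ± 4.47 to 667 ± 34.2 CPM with LPS in WT and from 149 ± 1.49 to 207 ± 8.72 CPM in KO-labelled libraries, an interaction of log2 -1.74 ± 0.08 (adjusted p = 1.38e-09), while the interaction of Batf did not pass the test.

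Immediate early genes outside the family were set beside Fos and Jun. Of 14 tested, LPS raised 10 and lowered 2 in WT (median log2 1.33, with 76.7% of all genes called) and raised 11 and lowered 2 in KO-labelled cells (median 1.60, with 79.9%). With LPS, 10 were higher and 0 lower in KO-labelled cells (median 0.57), where 22.1% of all genes were higher and 19.3% lower. The interaction called 8, all higher (median 0.47 against 0.0095 over all genes), where 9.78% of all genes were higher and 8.26% lower. Ier3 went from 13.9 ± 1.86 to 113 ± 8.44 CPM in WT and from 13.5 ± 1.70 to 233 ± 14.6 CPM in KO-labelled libraries (interaction log2 1.09 ± 0.14, adjusted p = 6.81e-05). Egr2, which like Fos and Jun fell with LPS, fell less in KO-labelled cells, from 64.2 ± 1.299 to 10.6 ± 0.557 CPM against 62.9 ± 1.92 to 5.41 ± 1.47 CPM in WT (interaction 0.94 ± 0.16, adjusted p = 8.23e-04). Fos and Jun had negative interactions.

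Of 15 tested genes described as AP-1 targets, LPS raised 11 and lowered 3 in WT and raised 11 and lowered 2 in KO-labelled cells, beside 76.7% and 79.9% of all genes called. With LPS 9 were higher and 3 lower in KO-labelled cells (median log2 0.31 against 0.00059 over all genes, of which 41.4% were called). With PBS 1 was higher and 5 lower (25.3% of all genes), and the interaction called 8, all higher (median 0.67 against 0.0095 over all genes, of which 18.0% were called). In LPS libraries Il6 stood at 412 ± 62.8 CPM under the WT label and 1212 ± 54.6 CPM under the KO label (log2 1.56 ± 0.13, adjusted p = 1.00e-06), and Ptgs2, the inducible cyclooxygenase, at 1617 ± 95.4 and 4534 ± 457 CPM (log2 1.49 ± 0.12, adjusted p = 9.67e-07). Csf2 had no count in any PBS library, and with LPS it reached 0.645 ± 0.249 CPM under the WT label and 9.44 ± 1.71 CPM under the KO label. For Tnf the same levels were 2585 ± 112 and 6643 ± 168 CPM (interaction log2 1.35 ± 0.12, adjusted p = 1.54e-06). Ccl2 was lower in KO-labelled cells with PBS (28.6 ± 1.26 against 85.3 ± 2.34 CPM) and had an interaction of log2 1.85 ± 0.13 (adjusted p = 3.17e-07). These genes also answer to NF-kB and other factors.

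Across the 12 libraries, 8 members are described by the genes whose log2 CPM followed them most closely, which all share the difference between PBS and LPS. The 3 most similar genes were Cyb5r1, Camk1 and Daglb for Jun, Rnpep, Myo1g and Slc7a5 for Jund, Engase, Card9 and Fgd4 for Fos, Flrt3, Ahr and Rab11fip1 for Fosl2, and Phlda1, Siglece and Msantd3 for Fosl1. For Atf3 they were Sco1, Gpr31b and St3gal5, for Batf Pnp, Pla1a and Myd88, and for Maff Fgr, Sqstm1 and Slc3a2. Pearson's r ran from 0.989 (Maff with Slc3a2) to 0.999 (Jun with Cyb5r1). Among the members, r was 0.97 between Jun and Fos, 0.996 between Junb and Batf, and -0.99 between Jun and Fosl2.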

How the data were processed

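RNA of 12 libraries had been sequenced as single-end reads on a BGISEQ-500. The deposited values are expected counts per gene (unscaled, 24.6% to 26.9% with decimals), made with Bowtie2 and RSEM 1.3.1 on GRCm38.p6 per the submitters' processing notes, whereas the study's methods name STAR and HTSeq. Values were rounded to whole counts. In R 4.3.3, edgeR 4.0.16 fitted 1 quasi-likelihood model (TMM scaling, filterByExpr, robust dispersions) to all 12 libraries, with 5 contrasts, two-sided p-values adjusted by Benjamini-Hochberg over 12064 genes and a threshold of 0.05. The fit was first tested on simulated data in which few genes changed, and only in the KO LPS group. That simulation does not test the scaling between PBS and LPS libraries. Intervals cover 95%, and the floor of 3 counts covers counting error only. Likeness was computed on log2(CPM + 0.5). Positions and promoters came from RefSeq GRCm38.p6 (16803 of 16920 genes matched, 9 of 10 members with a promoter entry), exon lengths and overlaps from GENCODE.

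The members, gene lists and tests were chosen with earlier results of these data known. Named genes were all members and Ythdf1, plus, for each list and contrast, the 3 called genes with the largest log2 change whose higher group averaged 5 CPM or more, and partners or regulators of a member. Alternatives were RLE, upper-quartile and library-total scaling, 2 other filters, DESeq2 1.42.0, a replicate block, fits to the libraries compared, and leaving out each library. Some genes that this rule names are not reported here.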

Additional observations from a re-analysis of the deposited data

Results flagged for a closer look

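Results are listed here where the LPS responses of WT and KO-labelled cells differed by the test of the interaction itself (edgeR, adjusted over all genes). 6 of the 9 members tested met this, where 18.0% of all genes did (9.78% higher, 8.26% lower): Fosl1 (log2 1.54), Fosl2 (1.18) and Junb (0.26) with more positive responses in KO-labelled cells, and Jun (-0.64), Fos (-0.63) and Atf3 (-0.21) with more negative ones. The calls of Junb and Atf3 held in 8 and 7 of 19 alternatives. Groups held 3 libraries, too few for a test of single outlying libraries.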

How the results depend on the processing

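The LPS counts (9 members in each label) and the count between the labels with LPS (8) changed by at most 1 in each alternative run. With PBS the 2 calls became 1 to 2 when libraries were left out in turn. The interaction count of 6 ranged from 4 to 7. With the replicate block it was 5, since Atf3 lost its call (-0.21, adjusted p = 0.0655), and the block changed no other member's call. Over all groups, 5 of 18 same-numbered pairs correlated above 0.1 (r from -0.19 to 0.20). PBS and LPS libraries of the same label and number had r of 0.16, 0.17 and -0.04 in WT. In KO-labelled cells these values were 0.03, 0.10 and 0.08. Differently numbered PBS and LPS pairs ran from -0.25 to 0.15 in WT and from -0.08 to -0.008 in KO-labelled cells. Whether PBS and LPS cultures shared animals cannot be told from these values. Signs changed for Atf3 in KO-labelled cells with library totals (-0.0631), for Jund's interaction without WT LPS replicate 1 (0.0232), and for Batf, which was called in neither comparison. Batf's interaction turned to -0.0426 with library totals and ran from -0.0014 (without WT LPS replicate 1) to 0.181 with libraries left out. Its difference with LPS turned to -0.0595 with upper-quartile scaling, -0.0809 with library totals, -0.0062 with at least 10 counts in every library, -0.0052 in the LPS libraries alone, and ran from -0.0882 (WT LPS replicate 1 left out) to 0.0754, with -0.0046 and -0.0168 when replicate 1 or 2 of KO LPS was dropped.

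Upper-quartile scaling shifted the median LPS change of all genes by -0.31 in WT and -0.36 in KO-labelled cells, and library totals by -0.66 and -0.80. Higher calls then fell from 47.6% of calls in WT to 32.5% and 21.2%, and from 48.6% in KO-labelled cells to 33.8% and 20.8%. Between the labels they went with library totals from 48.6% to 61.6% with PBS, and with LPS from 53.4% to 41.6% (upper quartile) and 37.9% (totals). For the interaction they went from 54.2% to 43.1% and 24.4%, with a median shift of -0.14 under totals. Genes called between the labels with PBS went from 3058 to 4627 in the PBS libraries alone and to 1992 without KO PBS replicate 1. Fosl1 was not tested with at least 10 counts in every library. Fosb, at 1 to 4 counts, is limited by depth.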
